A study of Mus musculus with 8 samples.

Results

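Basement membranes are thin sheets of matrix beneath epithelia, built from a laminin network, a collagen IV network and linking proteins such as perlecan. Each laminin is a trimer of an alpha, a beta and a gamma chain. In the gut the epithelium and the underlying mesenchyme both contribute chains, while fibronectin belongs to the interstitial and provisional matrix and is a classical transcriptional target of TGF-beta in many cell types. The genes described here are 9 components of these structures, chosen by name: the laminin alpha chains Lama3 and Lama5, the beta chains Lamb1, Lamb2 and Lamb3, the gamma chain Lamc1, perlecan (Hspg2), the collagen IV chain Col4a1 and fibronectin (Fn1). The array annotation names 19057 genes, among them 8 of the 9. No named probe of Lama3 was analysed here. The 8 genes have 13 probes, all of which are described below.

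The RNA came from mouse intestinal organoids, cultures of gut epithelium, that carried mutated Apc, a negative regulator of Wnt signalling; the design text calls it deleted. TGF-beta was given to 4 samples for 18 h, at a dose of 3 ng/ml, and the other 4 samples were untreated; each was measured on 1 Illumina bead array. All 8 had received tamoxifen, after which the medium lost its growth factors, and per the labels they derived from C57Bl animals aged 3 to 4 months. The sources used here name neither the recombinase and its driver nor the affected part of Apc. They do not say whether replicates are separate cultures or animals, so p-values measure only how these samples vary, and variation within the sets of replicates described below may be technical. No sample with intact Apc was analysed.

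A probe was detected on an array when its detection p, the rank of its signal among negative controls, was under 0.05, and 14554 to 16626 probes per array were detected. A probe detected on at least 4 of the 8 arrays was tested, which left 9062 genes, each read from its tested probe with the highest mean. Of the 8 genes with probes, 7 were tested, with 9 probes. All values given below as levels are background-corrected, quantile-normalized log2 intensities, which compare samples for 1 probe and not genes with each other. All 10 epithelial markers examined were tested, 6 of them higher and 1 lower with TGF-beta (limma). Of all tested genes 9.56% were higher and 9.88% lower. Epcam, 1 of the 6, was detected on 0 untreated arrays and passed the filter through the TGF-beta arrays. The log2 of the epithelial markers' summed intensity was 15.60 to 15.87 in TGF-beta samples and 14.61 to 14.78 in untreated samples. Of 13 fibroblast and smooth muscle markers, 9 were detected on no array, among them Col1a1, Col1a2, Col3a1, Pdgfra and Pdgfrb. The same sum for that list was 9.10 to 9.52 in TGF-beta samples and 9.66 to 10.82 in untreated samples, and its 1 change was in Vim, which fell by 1.42 (adjusted p = 0.021). Of 10 endothelial markers 6 were detected on no array (sums of 8.65 to 8.88 in TGF-beta samples and 8.87 to 9.18 in untreated samples), and of 8 leukocyte markers with probes 2 (sums of 8.05 to 8.27 in TGF-beta samples and 7.83 to 8.14 in untreated samples). The sums include the markers detected on no array, and the endothelial and leukocyte ranges of the 2 groups overlapped. What part any difference in the sums has in the results below was not tested. In bulk RNA, fewer cells of a type and less RNA per cell cannot be told apart.

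The members responded in different ways to TGF-beta. Lamb3 and Fn1 rose and Hspg2 fell, while Lama5, Lamb2, Lamc1 and Col4a1 did not pass the threshold of an adjusted p of 0.05 (limma over all probes, Benjamini-Hochberg). Among all 9062 tested genes, 9.56% rose and 9.88% fell, 19.4% in all. Groups that did not overlap were seen for 3 of the 7 members, Lamb3, Fn1 and Hspg2, against 24.8% of all genes. Fn1 entered the test only through the TGF-beta arrays, where it was high, so the share of members past the threshold supports nothing by itself. Same-numbered replicates of the 2 groups resembled each other, and with replicate numbers entered as blocks Col4a1 also passed as higher and Lamb2 as lower.

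**Figure D1:**
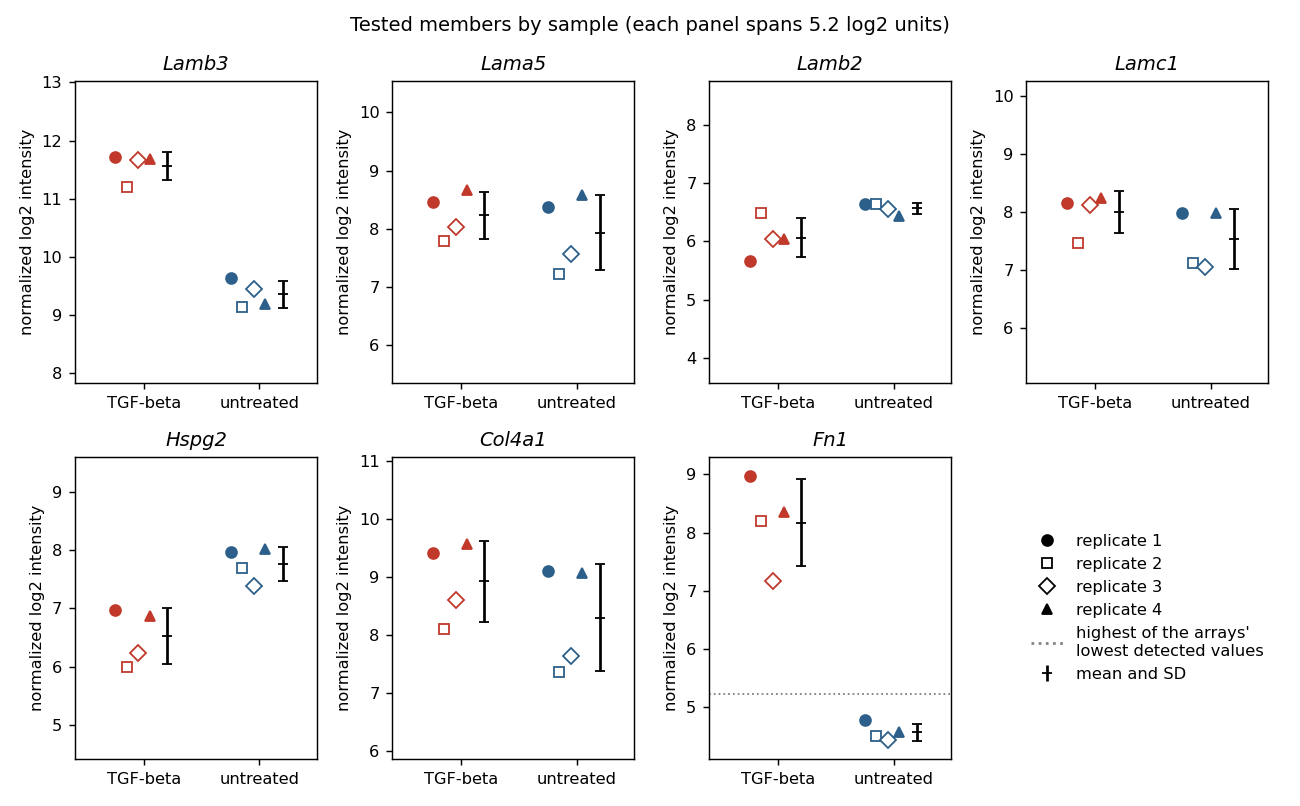
Normalized log2 intensity (vertical axes) of the 7 tested members in each of the 4 TGF-beta samples (red, left) and 4 untreated samples (blue, right), with mean and SD beside them. The groups are apart for Lamb3, Fn1 and Hspg2, whereas in Lama5, Lamc1 and Col4a1 the open symbols, replicates 2 and 3, lie below the filled ones, replicates 1 and 4, in untreated samples.

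Lamb3 encodes a beta chain of the laminin of hemidesmosomes, the anchors of epithelial cells to the basement membrane. RefSeq lists windows around 2 Lamb3 starts, from 250 bases before to 50 after each start (GRCm38.p6), which are shown because this gene had the clearest rise of the laminin chains. Capitals mark CAGAC or its complement GTCTG, the half-site to which Smad proteins, the transcription factors of TGF-beta signalling, are known to bind. The windows are chr1:193301744-193302043 and chr1:193301993-193302292, both on the plus strand, and share 51 bases.
Lamb3, first start: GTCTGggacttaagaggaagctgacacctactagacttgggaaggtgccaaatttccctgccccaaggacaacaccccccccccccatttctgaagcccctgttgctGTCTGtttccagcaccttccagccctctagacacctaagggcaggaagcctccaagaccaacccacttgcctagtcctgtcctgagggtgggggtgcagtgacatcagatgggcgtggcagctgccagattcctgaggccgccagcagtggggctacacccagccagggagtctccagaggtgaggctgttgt
Lamb3, second start: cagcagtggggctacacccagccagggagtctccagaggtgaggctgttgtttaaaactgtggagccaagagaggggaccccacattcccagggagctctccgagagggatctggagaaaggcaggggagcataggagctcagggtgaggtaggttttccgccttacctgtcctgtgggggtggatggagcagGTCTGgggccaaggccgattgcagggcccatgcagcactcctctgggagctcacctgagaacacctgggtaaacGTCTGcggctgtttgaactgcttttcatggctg
Each window holds 2 such matches. At least 1 match was present in 49.6% of all 32851 RefSeq windows of this length, and the share with 2 was not counted. The AP-1 motif TGANTCA, searched on both strands, was in neither Lamb3 window and in 7.81% of all windows. The windows of Lama5 and Lamb1, not shown, hold 1 half-site match each.

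The Lamb3 probe (ILMN_2605512) gave 11.71, 11.21, 11.66 and 11.68 in TGF-beta replicates 1 to 4, against 9.64, 9.14, 9.45 and 9.19 in untreated replicates 1 to 4. All TGF-beta samples lay above all untreated samples. Lamb3 was 4.63-fold higher with TGF-beta, a log2 difference of 2.21 (SE 0.170, 95% interval 1.83 to 2.59, adjusted p = 2.8e-05), which ranked 73rd of 9062 genes by size of the rise. The Lamb3 difference was 2.28 in replicates 1 and 4 and 2.14 in replicates 2 and 3. It was 2.07, 2.07, 2.22 and 2.49 in the numbered pairs 1 to 4.

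Lama5 encodes the alpha chain of the laminins that run along the whole epithelium of the intestine, and Lamc1 the gamma chain that most laminins share. The Lama5 probe gave 8.45, 7.78, 8.02 and 8.66 in TGF-beta replicates 1 to 4 and 8.37, 7.22, 7.56 and 8.58 in untreated replicates 1 to 4. The groups overlapped, and replicates 2 and 3 were the low samples in both. The difference of 0.30 (SE 0.313, 95% interval -0.40 to 0.99, adjusted p = 0.576) did not pass, nor did it with the replicate block (adjusted p = 0.138). Lamc1 has 2 tested probes. The brighter one (ILMN_2974798) gave 8.16, 7.46, 8.13 and 8.25 in TGF-beta replicates 1 to 4, against 7.99, 7.12, 7.06 and 7.98 in untreated replicates 1 to 4. The other (ILMN_2774596) gave 8.25, 7.44, 7.01 and 8.28 in TGF-beta replicates 1 to 4, against 7.89, 7.06, 7.10 and 7.97 in untreated replicates 1 to 4. The probes disagreed most in TGF-beta replicate 3, at 8.13 and 7.01. The differences between the groups were 0.46 (SE 0.266, 95% interval -0.13 to 1.05, adjusted p = 0.272) and 0.24 (SE 0.325, 95% interval -0.48 to 0.96, adjusted p = 0.671). With the replicate block neither passed (adjusted p = 0.063 and 0.212).

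Lamb2 and Lamb1 encode the beta chains that can pair with Lama5 and Lamc1. The Lamb1 probe was detected on none of the 8 arrays and was not tested; its signals were 133 to 137 in TGF-beta samples and 117 to 142 in untreated samples, where the medians of all probes were 132 to 143. Lamb2 gave 5.67, 6.49, 6.04 and 6.05 in TGF-beta replicates 1 to 4 and 6.64, 6.65, 6.55 and 6.44 in untreated replicates 1 to 4. Only TGF-beta replicate 2 reached the range of the untreated samples. The difference was -0.51 (SE 0.176, 95% interval -0.90 to -0.12, adjusted p = 0.073), a 1.42-fold lower level, below 0 in all 4 numbered pairs. With the replicate block it passed (SE 0.153, adjusted p = 0.033), as it did without TGF-beta replicate 2 (-0.65, adjusted p = 0.022), with array weights (-0.58, adjusted p = 0.031) and with median scaling (-0.68, adjusted p = 0.034). It did not pass without any of the other 7 samples (adjusted p from 0.097 to 0.157). Nor did it pass without background correction (-0.204, adjusted p = 0.093) or in the authors' processed values (-0.205, adjusted p = 0.093). The same held with cyclic loess (-0.482, adjusted p = 0.083). The difference was -0.681 in replicates 1 and 4 alone (adjusted p = 0.054) and -0.338 in replicates 2 and 3 alone (adjusted p = 0.325). The RefSeq window at the Lamb2 start, chr9:108479612-108479911 on the plus strand, is shown because the Lamb2 difference had the opposite sign to that of Lamb3, with the same half-sites in capitals.
Lamb2: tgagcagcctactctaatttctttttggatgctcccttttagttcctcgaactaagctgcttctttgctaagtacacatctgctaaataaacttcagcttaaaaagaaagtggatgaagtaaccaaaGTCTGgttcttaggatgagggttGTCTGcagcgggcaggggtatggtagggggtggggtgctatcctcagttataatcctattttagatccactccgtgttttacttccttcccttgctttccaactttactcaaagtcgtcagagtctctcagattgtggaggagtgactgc
It too holds 2 half-sites and no TGANTCA, which are the same counts as in each Lamb3 window. Its GC content was 44.0%, against 59.3% in both windows of Lamb3.

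Hspg2 encodes perlecan, the large heparan sulfate proteoglycan that links the laminin and collagen IV networks and binds growth factors. Both of its probes were detected on all 8 arrays. The brighter probe (ILMN_2685329) gave 6.98, 6.0, 6.24 and 6.87 in TGF-beta replicates 1 to 4, against 7.97, 7.69, 7.39 and 8.02 in untreated replicates 1 to 4. The second probe (ILMN_2520249) gave 6.43, 6.58, 5.85 and 6.53 in TGF-beta replicates 1 to 4, against 7.56, 7.29, 7.31 and 7.17 in untreated replicates 1 to 4. On both, every TGF-beta sample lay below every untreated sample. The fall was 2.37-fold on the first (log2 difference -1.24, SE 0.242, 95% interval -1.78 to -0.71, adjusted p = 0.0061) and 1.98-fold on the second (-0.98, SE 0.184, 95% interval -1.39 to -0.58, adjusted p = 0.0048). By size of the fall the gene ranked 152nd of 9062. The first probe gave -1.07 in replicates 1 and 4 and -1.42 in replicates 2 and 3. Without background correction its difference was -0.68 (adjusted p = 0.0061). The window at the Hspg2 start, chr4:137468553-137468852 on the plus strand, is shown for the 1 member that fell.
Hspg2: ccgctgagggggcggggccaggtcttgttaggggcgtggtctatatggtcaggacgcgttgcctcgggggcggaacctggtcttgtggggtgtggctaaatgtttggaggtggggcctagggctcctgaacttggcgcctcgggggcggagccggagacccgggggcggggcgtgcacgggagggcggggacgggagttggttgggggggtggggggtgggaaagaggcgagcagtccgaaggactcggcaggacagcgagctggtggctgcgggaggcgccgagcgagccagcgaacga
No base is in capitals there, because the window holds neither CAGAC on either strand nor TGANTCA. Its GC content was 70.3%.

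Col4a1 encodes a chain of the collagen IV trimer that is found in nearly all basement membranes, where it pairs with the product of Col4a2. Col4a1 gave 9.42, 8.11, 8.60 and 9.57 in TGF-beta replicates 1 to 4, against 9.11, 7.37, 7.64 and 9.07 in untreated replicates 1 to 4. In every numbered pair the TGF-beta sample was the higher, by 0.31, 0.74, 0.96 and 0.50, while within each group replicates 2 and 3 lay below replicates 1 and 4. The difference was 0.63 (SE 0.453, 95% interval -0.38 to 1.63, adjusted p = 0.393) with the group alone and passed with the replicate block (SE 0.143, adjusted p = 0.010). Within replicates 2 and 3 it was 0.85 (adjusted p = 0.039) and within replicates 1 and 4 it was 0.40 (adjusted p = 0.147). Col4a2 gave 9.23, 7.37, 8.22 and 9.34 in TGF-beta replicates 1 to 4, against 8.84, 6.78, 6.82 and 8.62 in untreated replicates 1 to 4. Its order of samples was close to that of Col4a1, and its difference of 0.78 (SE 0.566, adjusted p = 0.397) did not pass with the group alone and passed with the block (adjusted p = 0.0086). RefSeq places the starts of the 2 genes 21 bases apart on opposite strands. The window at the Col4a1 start is chr8:11312777-11313076 on the minus strand, and shares 78 bases with that of Col4a2.
Col4a1: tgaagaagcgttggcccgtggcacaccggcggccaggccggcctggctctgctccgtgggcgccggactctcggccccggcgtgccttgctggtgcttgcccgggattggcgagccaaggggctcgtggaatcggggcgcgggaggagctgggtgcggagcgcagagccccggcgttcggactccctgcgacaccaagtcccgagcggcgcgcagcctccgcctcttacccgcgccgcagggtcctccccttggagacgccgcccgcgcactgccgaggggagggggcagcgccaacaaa
It holds neither motif and has a GC content of 74.0%.

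**Figure D2:**
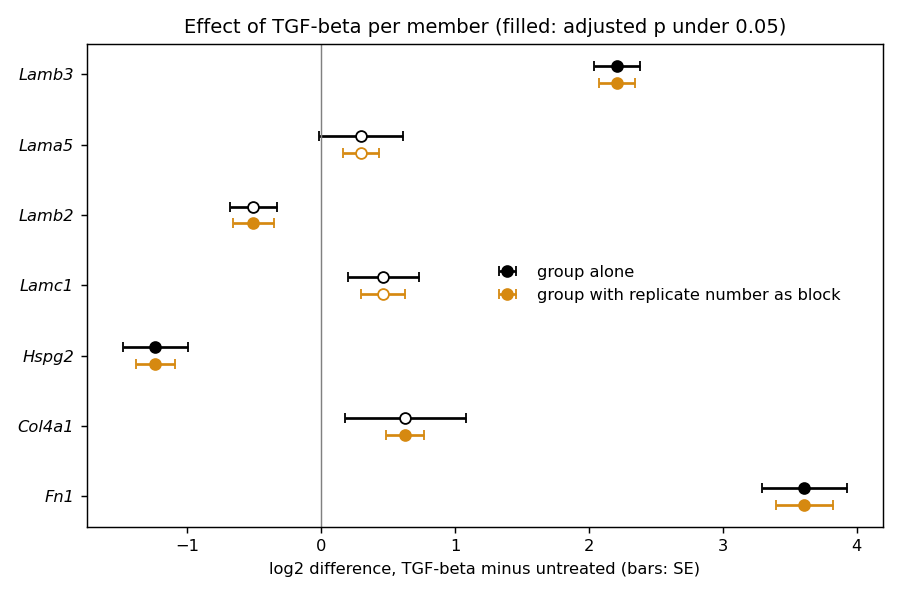
Log2 difference of TGF-beta minus untreated samples for each tested member (horizontal axis, bars are the SE of the fit), with the group alone in black and with the replicate number as a block in orange. Filled points passed an adjusted p of 0.05; with the group alone these are Lamb3, Hspg2 and Fn1, and with the block also Lamb2 and Col4a1; the untreated values of Fn1 were at background.

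Fn1 encodes fibronectin, a dimeric glycoprotein that cells assemble into fibrils through integrins. It has 4 annotated probes, all listed for 1 RefSeq transcript, and they disagreed. Probe ILMN_2595714 was detected on all 4 TGF-beta arrays and on 0 of the 4 untreated arrays. Before normalization its signals were 612, 316, 276 and 450 in TGF-beta replicates 1 to 4, against 135, 130, 122 and 128 in untreated replicates 1 to 4. On the normalized scale it gave 8.98, 8.20, 7.16 and 8.35 in TGF-beta replicates 1 to 4, and 4.77, 4.50, 4.43 and 4.57 in untreated replicates 1 to 4. The untreated values lay below the lowest detected values of their arrays, so the rise is a bound: on the background-corrected scale Fn1 was at least 8.51-fold higher with TGF-beta, taking on each untreated array the higher of that lowest value and the probe's own (fitted difference of measured values 3.61, SE 0.315, adjusted p = 6.0e-05). TGF-beta replicate 3 was the lowest of its group. Without background correction the log2 difference was 1.70 (adjusted p = 0.0010), so the bound holds for the corrected scale and not for the deposited signals. Without TGF-beta replicate 3 the fitted difference was 3.95, and in replicates 2 and 3 alone it was 3.22 (adjusted p = 0.00062).

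The other 3 Fn1 probes stayed near background and were not tested. Probe ILMN_1260125 was detected on 1 TGF-beta and 1 untreated array, ILMN_2588227 on none, and ILMN_2646618 on 1 TGF-beta array. Their mean levels were 4.94, 4.69 and 4.95 in TGF-beta samples and 4.95, 4.55 and 4.72 in untreated samples. The lowest detected levels of the 8 arrays were 5.04 to 5.23, so these means carry no measured level. The rise of Fn1 thus rests on 1 of its 4 probes. The sources used here do not say where in the transcript each probe lies.

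**Figure D3:**
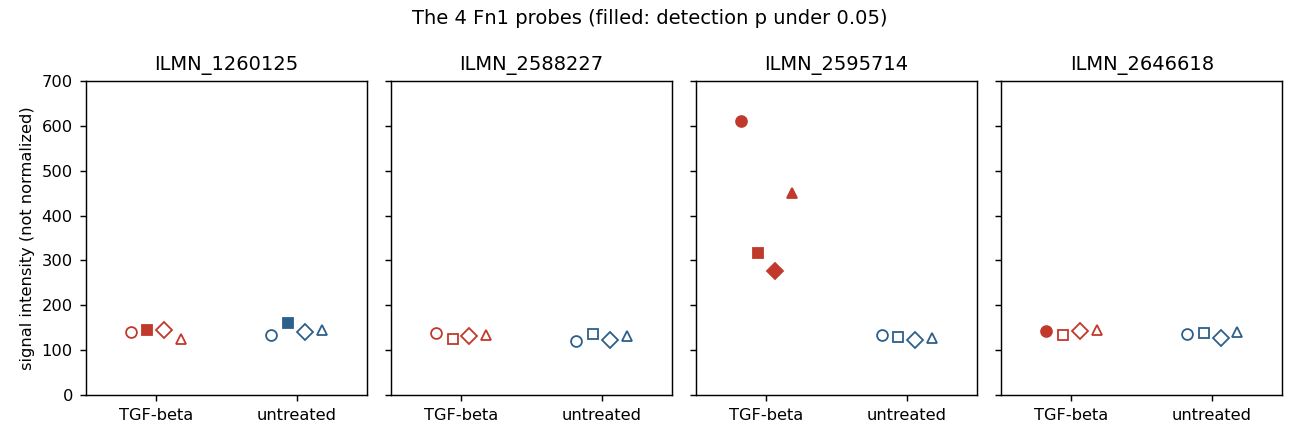
Signal intensity before normalization (vertical axis, from 0) of the 4 Fn1 probes, 1 panel each, in the 4 TGF-beta samples (red) and the 4 untreated samples (blue); filled symbols mark arrays on which the probe was detected. Probe ILMN_2595714 reaches 276 to 612 with TGF-beta, while the other 3 probes lie between 120.4 and 160.1.

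The members also differed between replicates in a way that crosses the treatment. Replicates 2 and 3 of both groups had high signals of Xist, the transcript that silences an X chromosome in female cells, at 8.29 to 9.16 (mean of its 4 probes), and replicates 1 and 4 had 4.52 to 4.65. The Y-linked gene Eif2s3y showed the reverse (mean of its 2 probes). It gave 6.51 to 6.75 in replicates 1 and 4 and 4.66 to 4.83 in replicates 2 and 3. In a fit with group and this division, a test chosen after the data were seen, Col4a1 was lower in replicates 2 and 3 by a log2 difference of -1.36 (SE 0.156, adjusted p = 1.3e-04). Lama5 was lower by -0.87 (SE 0.149, adjusted p = 0.0020), Hspg2 by -0.63 (SE 0.137, adjusted p = 0.0081) and Lamc1 by -0.65 (SE 0.165, adjusted p = 0.018). The second Lamc1 probe gave -0.95 (adjusted p = 5.6e-04) and the second Hspg2 probe -0.17 (adjusted p = 0.549). Lamb3 (-0.19, adjusted p = 0.436), Lamb2 (0.23, adjusted p = 0.335) and Fn1 (-0.60, adjusted p = 0.109) did not pass. The Fn1 value takes in untreated values at background. Its TGF-beta samples gave 8.20 and 7.16 in replicates 2 and 3, and 8.98 and 8.35 in replicates 1 and 4. In this fit 4 of the 7 members were lower in replicates 2 and 3 and 0 higher (0 also at an unadjusted p under 0.05). Among all genes 11.2% were lower and 20.3% differed in either direction. The Lamc1 call was lost without TGF-beta replicate 2 (adjusted p = 0.052) or any 1 of the 4 untreated samples (adjusted p from 0.051 to 0.060), and Fn1 passed with median scaling (adjusted p = 0.016). Whether the size of the response to TGF-beta differed between the 2 sets was tested as an interaction (limma). Of the 7 members 0 passed, beside 0.011% of all genes. The smallest unadjusted p among the members was 0.11 (Fn1), a value that also rests on untreated signals at background.

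Members were also compared by their whole pattern over the 8 samples, as the root mean square difference (RMS) of log2 values centred on each gene's mean. The closest members were Lama5 and Lamc1, 0.211 apart, followed by Lama5 and Col4a1 at 0.309 and Lamc1 and Col4a1 at 0.376. Among the members detected in both groups, Lamc1 lay nearest to Lamb3, at 0.929. Hspg2 lay nearest to Lamb2, at 0.635. Among all tested genes, the nearest to Lamb3 were Gadd45a (0.169), Sdc3 (0.170) and Tnfaip8 (0.200), whose own differences were 2.04, 2.35 and 2.12. Hspg2 lay nearest to Birc5 (0.082), Zranb3 (0.097) and Sgo1 (0.104), with differences of -1.23, -1.27 and -1.39. Col4a1 was nearest to Itga3 (0.177), Akr1b8 (0.181) and Epha2 (0.188). For Fn1 the nearest were Sox11 (0.318), Igfbp7 (0.320) and Nt5e (0.427), distances that depend on untreated Fn1 values at background. The nearest genes were Atg9b, Vopp1 and Ly6e for Lama5 (0.092 to 0.116), Ppm1d, Adat1 and Dmwd for Lamb2 (0.070 to 0.117), and Acer3, Slc25a30 and Mid2 for Lamc1 (0.140 to 0.165). These are descriptions over 8 samples that share the treatment and the division of the replicates.

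Other matrix genes were taken from 6 lists of 120 gene symbols in all, chosen with earlier results of these data known. Besides basement membrane genes, the lists cover receptors, matrix secretion and processing, and interstitial and provisional matrix. Of the 58 genes tested, 24 rose and 2 fell, 41.4% and 3.45%, beside 9.56% and 9.88% of all tested genes. Among the rises, Thbs1, Plau, Ecm1 and Itgav were detected on all 4 TGF-beta arrays and on at most 2 untreated arrays. They met the detection filter through the TGF-beta arrays, and Smoc2, 1 of the falls, through the untreated arrays. These shares therefore support nothing by themselves. With detection p under 0.01 on all 8 arrays, 19 list genes rose and 1 fell. The median difference of the 58 was 0.50 beside -0.05 over all tested genes. With the replicate block 32 of the 58 rose and 3 fell. In the fit with the group alone, the receptor list held 10 of the rises and secretion and processing 7. Interstitial and provisional matrix held 5, and other basement membrane components held 2 rises and both falls. Of the other laminin chains, Lama1, Lama2 and Lamc3 were detected on no array. Lama4 was detected on 2 TGF-beta and 2 untreated arrays and gave a difference of 0.09 (adjusted p = 0.717). Of the other collagen IV chains besides Col4a2, Col4a3, Col4a4 and Col4a5 were not tested, and Col4a6, detected on 3 TGF-beta arrays and 1 untreated array, gave 0.09 (adjusted p = 0.792).

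Other basement membrane components went both ways, with 2 of 8 tested genes higher and 2 lower, beside 9.56% and 9.88% of all tested genes. Col18a1, a collagen whose cleaved end is endostatin, gave 11.04, 9.04, 9.57 and 10.76 in TGF-beta replicates 1 to 4, against 8.64, 7.34, 7.24 and 8.66 in untreated replicates 1 to 4. It rose 4.39-fold (adjusted p = 0.013), and replicates 2 and 3 were low in both groups, as for Col4a1. Tinagl1, a secreted protein that binds laminin and integrins, rose 4.61-fold (adjusted p = 7.9e-04) and was detected on 3 untreated arrays. The fibulin Fbln1 fell 1.68-fold (adjusted p = 0.0056). Of its other tested probes, ILMN_2728985 and ILMN_2449644 also passed as lower. Probes ILMN_2497957 (-0.50, adjusted p = 0.182) and ILMN_2602770 (-0.28, adjusted p = 0.342) did not. Smoc2, a matricellular calcium-binding protein, fell 2.78-fold (adjusted p = 0.010) and was detected on 1 TGF-beta array. Agrn, the heparan sulfate proteoglycan agrin, chosen after its value was seen, gave a difference of 0.52 (adjusted p = 0.243) and passed with the replicate block (adjusted p = 0.013).

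Receptors of laminin, collagen IV and fibronectin were the list with the largest share of rises, 10 of 16 tested, with 0 falls (limma, 0 also at an unadjusted p under 0.05) and a median of 0.96. Among all tested genes 9.56% rose and 9.88% fell. The list also holds Plec, Dst and Cd151, which are not themselves matrix receptors, and Plec and Cd151 are among its rises. By adjusted p the first were Itgb6 (2.58), Itga2 (2.10), Itgb5 (1.24), Plec (1.44), Itgav (1.32, detected on 2 untreated arrays) and Sdc1 (1.31), with adjusted p from 5.1e-05 to 7.9e-04. A second tested Itgav probe (ILMN_1236648) gave 0.33 and did not pass (adjusted p = 0.354). Itgb6, Itgb5 and Itgav encode integrin chains that bind fibronectin or vitronectin, Itga2 a collagen receptor chain, Plec the plectin of hemidesmosomes and Sdc1 a syndecan. Itgb4, the hemidesmosome integrin chain that binds the laminin containing Lamb3, was chosen after its value was seen: it gave 12.61, 12.09, 11.90 and 12.84 in TGF-beta replicates 1 to 4, against 11.60, 11.09, 11.24 and 11.80 in untreated replicates 1 to 4. It rose 1.90-fold (adjusted p = 0.023), and the call was lost without TGF-beta replicate 1 or 4 or untreated replicate 2 or 3 (adjusted p from 0.057 to 0.064), with median scaling (adjusted p = 0.067) and with no detection filter (adjusted p = 0.059). A second Itgb4 probe (ILMN_2634689) rose 2.35-fold (adjusted p = 0.0025).

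Of 21 tested genes of matrix secretion, crosslinking and processing, 7 rose and 0 fell (limma, 0 also at an unadjusted p under 0.05), with a median of 0.44. The shares over all tested genes, for this list and the next, were 9.56% higher and 9.88% lower. Furin, a proprotein convertase, rose by 1.66 (adjusted p = 2.8e-05), Bmp1, a protease that trims laminin and collagen chains, by 1.46 (adjusted p = 0.0036), and Colgalt1, which glycosylates collagen, by 1.34 (adjusted p = 5.6e-04). Mmp14, a membrane metalloprotease (0.96), the transglutaminase Tgm2 (0.65) and the urokinase gene Plau (0.75, detected on 1 untreated array) had adjusted p of 0.013, 0.011 and 0.031. Plau lost its call without any 1 of 5 samples, TGF-beta replicates 1 and 4 and untreated replicates 1, 2 and 3 (adjusted p from 0.075 to 0.083). It also lost it without background correction (0.244, adjusted p = 0.061), in the authors' processed values (0.245, adjusted p = 0.060), with no detection filter (adjusted p = 0.067) and in replicates 1 and 4 alone (adjusted p = 0.064). The seventh, the plasminogen activator gene Plat (0.85, adjusted p = 0.049), was chosen after its value was seen and lost its call without any 1 of 6 samples, with median scaling (adjusted p = 0.125) and with no detection filter (adjusted p = 0.127). Its difference was 0.31 in replicates 1 and 4 alone (adjusted p = 0.296) and 1.40 in replicates 2 and 3. Of 10 tested genes of interstitial and provisional matrix, 5 rose and 0 fell (limma, 1 lower at an unadjusted p under 0.05): Ecm1 (2.79, detected on 2 untreated arrays), the thrombospondin Thbs1 (2.49, detected on 1 untreated array), the matricellular genes Ccn2 (2.32) and Ccn1 (1.77), and Ltbp4 (1.43), which binds latent TGF-beta. The gene lower at that level was Tgfbi (-1.29, adjusted p = 0.071), which passed as lower with the replicate block (adjusted p = 0.039). Tgfbi was detected on 1 TGF-beta array and 3 untreated arrays. Its difference was -0.31 in replicates 1 and 4, -2.27 in replicates 2 and 3, and 0.545 in numbered pair 4. Fibrillar collagen genes Col1a1, Col1a2 and Col3a1 were detected on no array of either group.

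**Figure D4:**
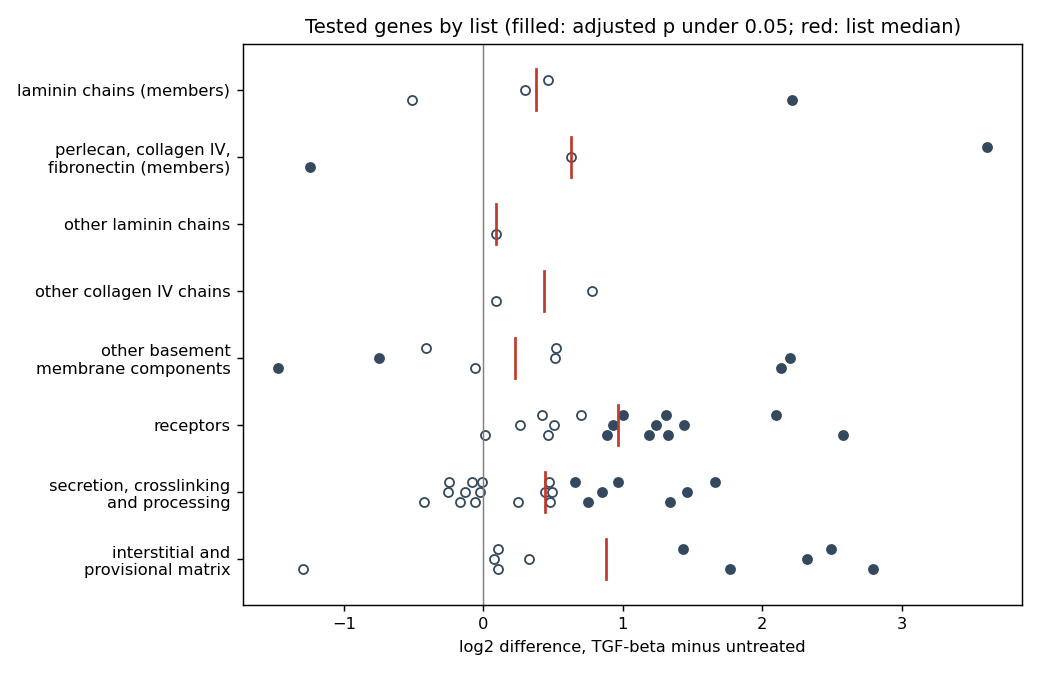
Log2 difference of TGF-beta minus untreated samples (horizontal axis) for each tested gene of 8 lists, 1 point per gene, filled where the adjusted p was under 0.05, with the list median as a red line. Members lie on both sides of 0, with Hspg2 at -1.24 and Lamb3 at 2.21, and the receptor list has the highest median, 0.96. The point of Fn1, at 3.61, is set against untreated values at background.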

How the data were processed

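RNA of 4 TGF-beta and 4 untreated samples was measured on Illumina bead arrays, 1 array each. The deposited intensities are not normalized, per the file headers, and the detection p-values beside them are those the authors deposited. The values moved in steps of 1 in 936, taken as ranks among that many negative controls. A second deposited table holds the authors' processed values, on a log2 scale by comparison with the intensities (r of at least 0.998 per array); its columns have the same median, 7.10, and lowest value, 6.59, and the sources used here do not give its exact processing, the scanner software or the background handling.

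Of 45281 probes, 34885 had 1 gene symbol in the platform annotation, 18 several and 10378 none. Intensities were background-corrected from the detection p-values (normexp, offset 16), quantile-normalized and set on the log2 scale with limma 3.58.1 in R 4.3.3. Probes with a detection p under 0.05 on at least 4 of 8 arrays, 15573 in all, were fitted with the group as the term (lmFit, eBayes), with Benjamini-Hochberg adjustment over all of them, and an adjusted p under 0.05 was called. A bound against a group without detection used, per array, the higher of the lowest detected value and the probe's own. The procedure was tested on simulated data whose noise was independent between samples, so the likeness of same-numbered replicates was not covered. Python 3.11.15 with matplotlib 3.10.9 drew the figures.

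The labels number the replicates 1 to 4 in both groups. Same-numbered samples deviated together from their group means (r of 0.534, 0.513, 0.515 and 0.555 for pairs 1 to 4, each closest to its own number), so the numbers were taken to pair the samples, from the values and not from a stated design. The named genes are all members, their 3 nearest genes by pattern, and the other laminin and collagen IV chains. From each other list they are up to 6 genes past the threshold by adjusted p. Xist, Eif2s3y, Epcam, Vim, the undetected markers, Agrn, Itgb4, Plat, Tgfbi, Dst and Cd151 fall outside that rule. Their values had been seen when they were chosen. Members and lists were chosen with earlier results of these data known. Promoter windows are RefSeq's for GRCm38.p6. Of the 8 members with probes 6 matched, and Lama3 was not looked up. The number of arrays limits the precision. Alternatives covered background correction, scaling, detection filter, variance model, probe choice, blocks and left-out samples.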

Additional observations from a re-analysis of the deposited data

Results flagged for a closer look

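Of 18 groups of 4 values, 1 group per tested probe and condition, 2 had a sample whose gap to its nearest neighbour, divided by the range of the group, was above Dixon's 95% critical value for 4 samples; chance marks about 1 in 20 groups. The Lamb3 level of TGF-beta replicate 2 was 11.21, with the nearest sample at 11.66 (ratio 0.916). The level of Lamc1 probe ILMN_2974798 in TGF-beta replicate 2 was 7.46, with the nearest sample at 8.13 (ratio 0.845). Both came from the array with the fewest detected probes, 14554. Without that sample the Lamb3 difference was 2.33 (limma, adjusted p = 5.3e-05), and Lamb2 passed as lower.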

How the results depend on the processing

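In alternative fits of the 7 members' differences, 138 values kept direction and call, 8 passed where the reported fit did not (5 for Lamb2, 3 for Col4a1), and 0 reversed or lost a call. Against 1761 genes past the threshold, the replicate block gave 2873, the replicate sets as a block 2890, and an adjusted p under 0.01 gave 841. With the blocks, 3 members were higher in place of 2, as in replicates 2 and 3 alone; with detection p under 0.01 on all 8 arrays 1 was, because Fn1 was then not tested. Lower members numbered 2 in place of 1 with median scaling, array weights and both blocks, and 1 to 2 when a sample was left out. Lower list genes numbered 1 in place of 2 with the stricter detection filter and at an adjusted p under 0.01, and 4 in replicates 2 and 3 alone. Median scaling moved the median of all genes to -0.18 from -0.05 and gave 495 higher and 941 lower genes (34.5% higher) in place of 866 and 895 (49.2%). Genes whose response differed between the sets numbered 1, and 57 without background correction and in the authors' table, 44 with trended, robust variances, 32 with median scaling, 18 with the stricter filter, and 2 with cyclic loess or array weights; 0 members were among them (limma; 0 also at an unadjusted p under 0.05 in the reported fit). Bmp1 and Mmp14 lost their calls in replicates 2 and 3 alone, as did Tgm2, which also lost it with median scaling (adjusted p of 0.071, 0.069, 0.097 and 0.145). The cause of these changes was not tested.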
